A study of Mus musculus with 45 samples.

Results

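The apolipoprotein L (Apol) locus of mouse chromosome 15 was examined in single-nucleus chromatin accessibility data from Stag2 WT and KO erythroblasts. Its members were every gene of the deposited gene table that lies on chromosome 15, has a name starting with Apol and starts within 100 kb of the start of Apol11a (position 77508271, mm10). The rule gave 6 of 24333 genes, and another 8 genes with a name starting with Apol lay outside it. The locus was chosen by the measured scores of Apol11a and Apol10a, which were higher in KO than in WT, so the KO against WT values of the locus are given here as a description, with no test.

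The samples were Ter119+ erythroblasts, red cell precursors sorted on the surface marker Ter119, from mice with an intact Stag2 gene (WT) and mice in which it had been deleted (KO), with 3 libraries of each. The STAG2 protein is part of cohesin, a ring-shaped complex that holds chromatin in loops. Cells of both groups were collected 6 to 8 weeks from the final dosing with pIpC. This compound is a synthetic double-stranded RNA that induces interferon and is used to switch on inducible deletion alleles. The Cre driver, strain, age and number of animals per library are not given in the sources used here, so the spread between libraries may be partly technical.

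Apolipoproteins L are a family of proteins with a helical, membrane-associating region, related by sequence to the human APOL1 protein that lyses trypanosomes, and they are unlike the lipid carriers of plasma lipoproteins in structure. Several members respond to interferon. In the mouse the family forms a cluster of closely related gene copies on chromosome 15, and the role of most single members in red cell precursors is not established.

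The measurement was the gene score, a signal that sums the accessible DNA fragments around a gene in a nucleus. It reports open chromatin and not expression. Each library's mean score was scaled to a sum of 1000000 over all genes, and levels are in these units. In such a score neighbouring genes can share fragments, and the weighting by distance is not given in the sources used here.

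The 6 libraries held 34073 nuclei, between 5819 and 6990 in WT and between 4617 and 4925 in KO, with 46782673 to 66286151 fragments per library. Per library, the median nucleus had 62.2% to 64.7% of its fragment ends in peaks in WT and 57.4% to 59.9% in KO. A barcode sequence that also occurs in another library was carried by 1478 nuclei (4.34%). Stag2 itself scored 65.3 ± 0.891 in the WT libraries against 62.9 ± 2.08 in the KO libraries (SD), which does not check the labels because the score spans the whole gene and the deleted stretch is not given. Of the authors' 3 classes of nuclei, Int (read here as intermediate) and Late held enough nuclei in every library for a fit, and Early held 16 to 310 per library.

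In order along the chromosome, the members were Apol9a, Apol7b, Apol10a, Apol11a, Apol7c and Apol10b. Apol10a (77477047 to 77491069) and Apol11a (77508271 to 77517319) lie on the plus strand. Apol9a (77403789 to 77411080), Apol7b (77422209 to 77447460), Apol7c (77524867 to 77533315) and Apol10b (77584158 to 77596125) lie on the minus strand. Measured from the start of Apol11a, with positions toward lower coordinates negative, the starts lay at -97.191 kb for Apol9a, -60.811 kb for Apol7b, -31.224 kb for Apol10a, 25.044 kb for Apol7c and 87.854 kb for Apol10b. The nearest family genes beyond the 100 kb limit were Apol7a at -109.161 kb and Apol11b (77633951 to 77643286, minus strand) at 135.015 kb.

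The promoter windows of the 4 members with the highest KO scores and of Apol11b are printed because they show how alike the copies are where accessibility was highest in KO or just outside the limit. Each runs 5′ to 3′ on the gene's own strand, from 250 bases before to 50 bases after the RefSeq start (GRCm38.p6). The capitals mark the motif of interferon regulatory factors (IRF), here GAAA, any 2 bases and GAAA again, read on either strand, and overlapping matches run together. The windows are chr15:77508019-77508318 (plus strand) for Apol11a, chr15:77476797-77477096 (plus strand) for Apol10a, chr15:77643237-77643536 (minus strand) for Apol11b, chr15:77533266-77533565 (minus strand) for Apol7c and chr15:77596076-77596375 (minus strand) for Apol10b.
Apol11a: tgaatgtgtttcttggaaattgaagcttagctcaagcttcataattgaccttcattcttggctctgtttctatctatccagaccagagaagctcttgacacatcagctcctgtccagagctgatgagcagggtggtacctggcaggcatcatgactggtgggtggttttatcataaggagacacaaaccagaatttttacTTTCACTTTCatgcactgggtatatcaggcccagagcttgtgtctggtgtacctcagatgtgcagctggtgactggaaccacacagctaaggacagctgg
Apol10a: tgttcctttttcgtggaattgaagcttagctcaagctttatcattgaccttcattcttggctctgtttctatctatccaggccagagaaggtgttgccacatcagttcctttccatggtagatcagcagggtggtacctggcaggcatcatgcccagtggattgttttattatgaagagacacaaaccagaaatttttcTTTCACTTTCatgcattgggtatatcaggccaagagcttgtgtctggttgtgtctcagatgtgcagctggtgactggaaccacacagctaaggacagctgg
Apol11b: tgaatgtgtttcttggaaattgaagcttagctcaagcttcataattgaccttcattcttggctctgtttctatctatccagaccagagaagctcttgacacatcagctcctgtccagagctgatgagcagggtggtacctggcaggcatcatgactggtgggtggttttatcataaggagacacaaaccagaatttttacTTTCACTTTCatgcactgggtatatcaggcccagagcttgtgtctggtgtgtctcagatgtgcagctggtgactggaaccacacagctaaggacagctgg
Apol7c: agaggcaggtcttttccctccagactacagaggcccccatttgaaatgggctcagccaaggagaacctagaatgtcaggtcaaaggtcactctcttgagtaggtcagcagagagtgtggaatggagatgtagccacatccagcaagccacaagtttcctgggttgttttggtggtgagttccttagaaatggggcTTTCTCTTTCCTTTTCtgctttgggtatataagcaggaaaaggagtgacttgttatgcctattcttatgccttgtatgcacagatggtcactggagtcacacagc
Apol10b: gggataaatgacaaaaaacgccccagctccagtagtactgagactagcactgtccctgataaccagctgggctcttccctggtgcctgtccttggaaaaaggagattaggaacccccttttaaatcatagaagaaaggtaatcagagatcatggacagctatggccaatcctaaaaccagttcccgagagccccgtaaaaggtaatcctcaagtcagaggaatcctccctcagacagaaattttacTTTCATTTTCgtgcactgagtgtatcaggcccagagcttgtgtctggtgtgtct

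The windows of Apol11a and Apol11b were identical at 298 of 300 aligned bases (99.3%), and those of Apol10a and Apol11a at 266 of 299 (89.0%). Apol7c and Apol10b were less like Apol11a, at 59.7% and 57.5% of aligned bases. Other near copies were Apol7b with Apol7e, a family gene outside the limit (293 of 295 bases), and Apol9a with Apol9b (278 of 278). Fragments in such copies cannot be assigned with certainty to 1 of them, so the scores of Apol11a, Apol7b and Apol9a are uncertain to that extent, as is the split between Apol11a and Apol11b.

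An IRF motif match was found in 5 of the 6 members' windows, all but that of Apol7b, and in 8 of the 11 windows of the chromosome 15 family that RefSeq gave. Apol6, a family gene farther along the chromosome, had none listed. Over all 32851 windows of this length 3.443% held a match. In Apol10a, Apol11a and Apol11b the match read GAAAGTGAAA on the opposite strand and ended 42, 41 and 41 bases before the start. Apol7c held 2 overlapping matches, and in Apol10b the match lay across the start. Of the other letters searched on both strands, AGATAA, known from sites of Gata1, was in none of the 11 windows and in 11.178% of all. TGATAA, the other form searched, was in 1 copy each in Apol10a, Apol11a, Apol10b and Apol11b and in 9.053% of all windows. TTCNNNGAA, a STAT motif, was in Apol10a, Apol11a and Apol11b and in 8.298% of all windows. The copies share ancestry, so these windows are not independent, and a match is a description of letters and not of a bound site.

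Over all nuclei, Apol11a had the highest KO score of the members and the highest log2 fold change of all genes tested. It scored 9.29, 11.8 and 5.34 in WT libraries 1, 2 and 3 and 72.3, 66.1 and 69.7 in KO libraries 1, 2 and 3. The means were 8.80 ± 3.24 and 69.3 ± 3.09 (SD, n = 3 each), a 7.88-fold higher level in KO and a log2 fold change of 2.90 (SE 0.16). Log2 fold changes here are on the log2(score + 1) scale, which understates the change of low scores. The lowest KO library stood far above the highest WT library, in the contrast that chose the gene. All KO libraries lay above all WT libraries in 36.1% of all genes tested.

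Apol10a, the neighbour on the left with the same strand and the similar promoter, scored 4.36, 6.79 and 3.22 in WT and 26.2, 23.1 and 28.9 in KO. Its mean was 5.44-fold higher in KO (log2 fold change 2.26, SE 0.17). Apol7c, on the other side, scored 4.36, 6.40 and 4.09 in WT and 24.3, 22.04 and 23.9 in KO, a 4.73-fold difference (2.06, SE 0.13). In both genes all KO libraries lay above all WT libraries, as in 36.1% of all genes tested.

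Apol10b, at the right edge of the window, scored 5.42, 6.96 and 4.64 in WT and 15.3, 16.1 and 15.7 in KO, a 2.77-fold difference (1.34, SE 0.13). Apol7b had low scores of 1.51, 1.75 and 1.08 in WT and 4.70, 4.18 and 5.13 in KO, a 3.23-fold difference. Its mean was under the filter of 5, so it was not fitted. Apol9a was listed at 0 in every nucleus. In each of the 5 members with a score, WT library 2 was the highest and WT library 3 the lowest of the WT libraries. The WT library 3 also differed from the other WT libraries in its Int nuclei, which had a median of 10121 fragments against 12671 and 12877, and the part of this in the scores was not tested.

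All 3 KO libraries lay above all 3 WT libraries in 5 of the 6 members, which 36.1% of all genes tested also showed. Of the 6, 4 passed the filter on low scores and all 4 were past the adjusted threshold as higher in KO, as were 29.1% of all genes tested. The rule used this contrast, so nothing is read from these counts. Of those 4, Apol10a and Apol7c passed the filter only through their KO scores. The median log2 fold change was 2.16 over the 4 and 0.096 over all genes tested. Centring every library on its median moved that background median to -0.050 and the share of calls that were higher in KO from 67.1% to 35.4%. Under the same centring Apol11a stood at 2.76, Apol10a at 2.12, Apol7c at 1.91 and Apol10b at 1.19. The ranks of the members among 17682 genes were 1 for Apol11a, 5 for Apol10a, 7 for Apol7c and 49 for Apol10b.

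The difference was present in both classes of nuclei. In Int nuclei Apol11a scored 8.17, 10.7 and 5.01 in WT and 59.0, 54.6 and 57.5 in KO, a 7.18-fold difference (log2 fold change 2.75, SE 0.15). In Late nuclei it scored 9.97, 13.2 and 5.78 in WT and 92.8, 75.6 and 81.5 in KO, an 8.62-fold difference (3.04, SE 0.19). The libraries of the 2 genotypes did not overlap in either class, as in 22.8% of genes tested in Int and 36.8% in Late with KO above WT. In the few Early nuclei Apol11a scored 4.28 ± 0.640 in WT and 31.4 ± 4.13 in KO. Apol10a scored 2.39 in WT and 6.77 in KO there, and Apol7c 2.91 and 7.92. Apol10b (5.80 in WT, 8.53 in KO) and Apol7b (1.25 and 2.22) overlapped between the genotypes. The share of all genes without overlap was not computed for Early nuclei, so nothing is read from the order of these small libraries.

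Apol10a went from 6.48 in WT to 33.1 in KO in Int nuclei and from 3.42 to 20.2 in Late nuclei, so its level was lower in Late than in Int in both genotypes. Apol7c went from 5.47 to 17.4 in Int and from 4.73 to 30.0 in Late, with the higher KO level in Late. Apol10b showed 2.27-fold and 3.22-fold differences and Apol7b 2.33-fold and 4.56-fold differences in Int and Late nuclei. The plot of scores by library shows the members side by side in both classes.

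**Figure D1:**
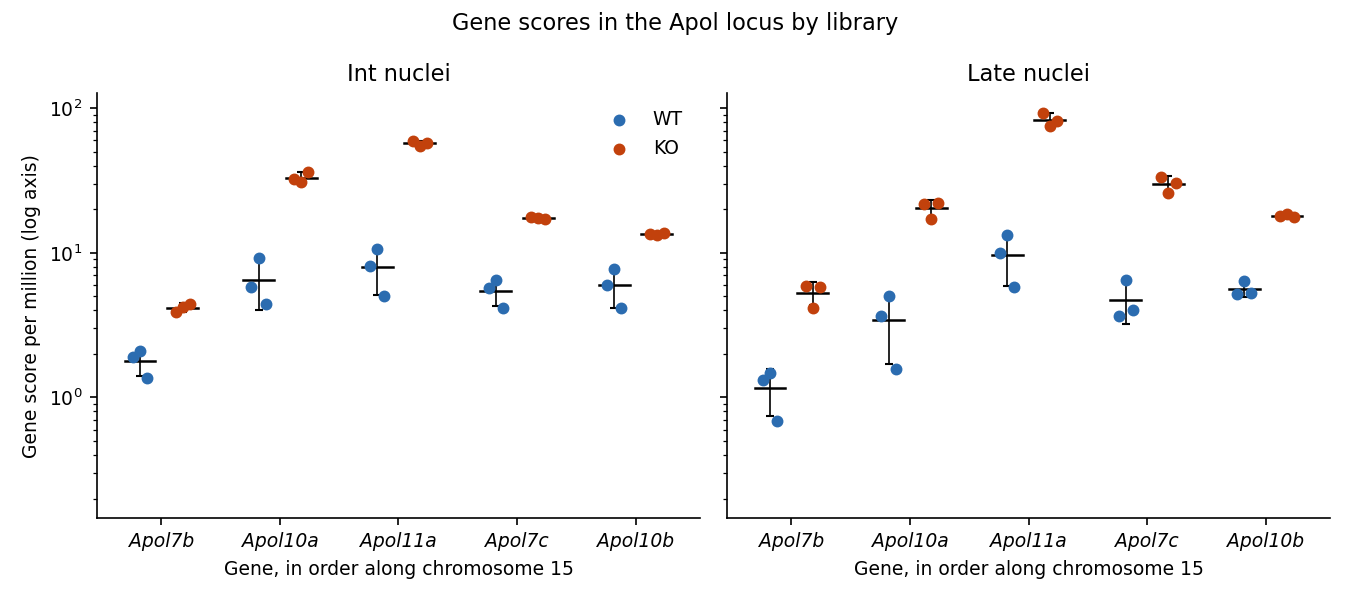
Gene score scaled to a sum of 1000000 per library (log axis) of the 5 members with a score above 0, in Int nuclei (left) and Late nuclei (right), with 1 point per library, WT in blue and KO in orange, and bars for mean and SD (n = 3). Every KO point lies above every WT point of the same gene, as in 22.8% of all genes tested in Int and 36.8% in Late. Apol11a has the highest KO scores in both classes.

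The share of nuclei with any Apol11a signal also differed. To narrow the range of depth, only nuclei of 5000 to 20000 fragments were compared. In these the KO libraries remained the deeper in Int, with medians of 13031 to 13476 fragments against 11497 to 12520 in WT, and in Late the medians were 7402 to 7746.5 in KO and 7049 to 7990.5 in WT. A score above 0 was found in 7.01% ± 2.12 of WT and 44.1% ± 1.95 of KO Int nuclei, and in 6.44% ± 2.20 of WT and 44.8% ± 4.37 of KO Late nuclei (SD over 3 libraries each). With no limit on depth the shares were 7.56% and 45.8% in Int and 5.34% and 35.5% in Late. Among the depth-limited nuclei with a signal, the mean Apol11a score per 10000 was 1.11 (WT) and 1.27 (KO) among Int nuclei, and for Late nuclei it was 1.5 (WT) and 1.90 (KO). A score above 0 can rest on very few fragments, so the level where present is a limited measure.

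In the depth-limited nuclei Apol10a was present in 7.01% of WT and 32.2% of KO Int nuclei but in 2.95% and 17.6% of Late nuclei. Apol7c was above 0 in 5.44% and 22.1% of Int and in 4.12% and 25.2% of Late nuclei. Apol10b gave 9.68% and 26.0% in Int and 8.76% and 29.9% in Late, and Apol7b gave the lowest shares, with 3.27% and 8.06% in Int and 1.67% and 6.62% in Late. A nucleus with no signal may be one in which no fragment was captured, so these shares are not shares of nuclei with an open locus.

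**Figure D2:**
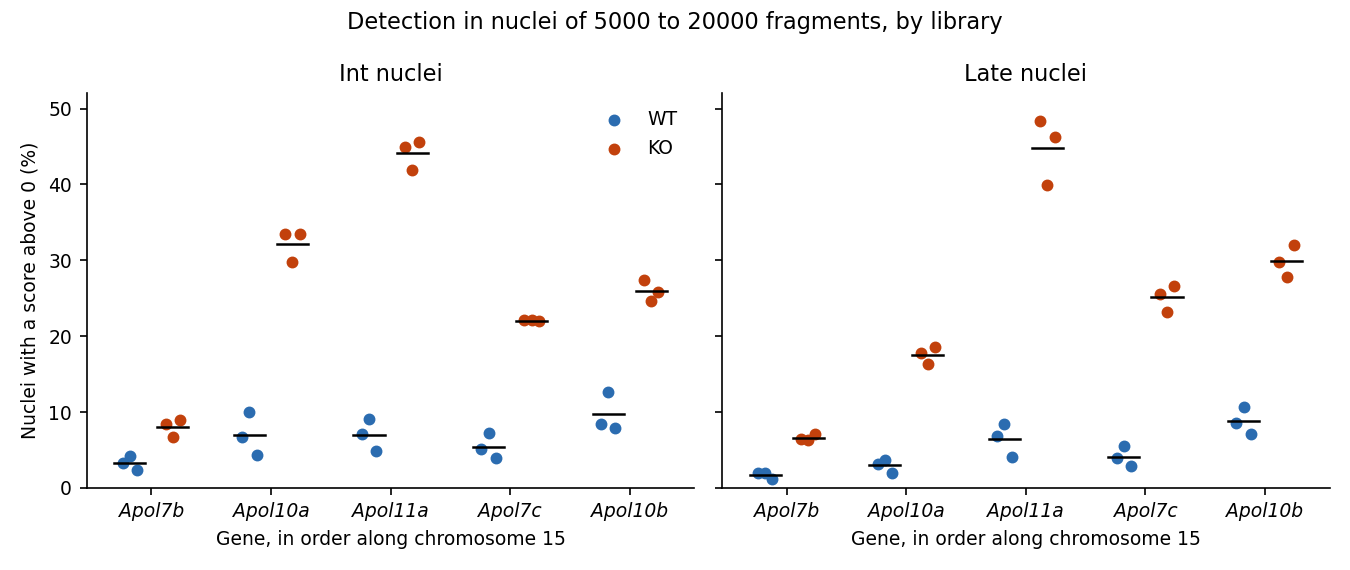
Percent of nuclei with a score above 0 for each member with a score, in Int (left) and Late (right) nuclei of 5000 to 20000 fragments, with 1 point per library and a bar at the mean of 3. Apol11a reaches 44.1% and 44.8% of KO nuclei, while all WT means are under 10%.

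The authors' clusters mostly separated the genotypes, so few held both. Among clusters with at least 50 nuclei in each library counted, KO nuclei had Apol11a scores of 54.3 ± 3.06 in cluster C10, 61.3 ± 2.45 in C8, 58.0 ± 4.19 in C5 and 84.3 ± 8.74 in C2. WT nuclei had 8.53 ± 2.98 in C11, 7.59 ± 3.26 in C9, 6.60 ± 1.66 in C6, 9.11 ± 6.91 in C5 and 9.85 ± 3.79 in C3 (SD, n = 3 libraries each). Each of these KO means lay above each of these WT means, mostly across different clusters and in the contrast that chose the gene. The share of all genes with such an order was not computed, so nothing is read from it. In C2, a Late cluster, the 190 WT nuclei scored 3.57 ± 4.48, but their median was 2101 fragments against 6285.5 in KO.

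Of the clusters with at least 50 nuclei in each of the 6 libraries, C2 and C5, the genotypes were closer in number in C5, mostly Int nuclei. It held 628 WT and 1698 KO nuclei, with medians of 4081.5 and 4871.5 fragments. Within it Apol11a scored 4.68, 17.1 and 5.57 in WT libraries 1, 2 and 3 and 62.4, 54.1 and 57.5 in KO libraries 1, 2 and 3. Each KO library lay above each WT library, a separation whose share over all genes was not computed within the cluster. The Apol11a log2 fold change of 2.75 in C5 was that of all Int nuclei. A signal was present in 3.50% of its WT and 23.5% of its KO nuclei. For Apol10a the C5 scores were 4.90 in WT and 31.9 in KO. That KO mean was close to those of 34.7 in C10 and 33.0 in C8 and above that of 20.01 in the Late cluster C2. Apol7c scored 5.43 in WT and 15.5 in KO in C5, and Apol7b 1.24 and 3.95. Apol10b was closer between the genotypes there, at 12.8, 6.36 and 8.01 in WT and 12.9, 14.6 and 14.6 in KO. Its log2 fold change in C5 was 0.63, against 1.09 in all Int nuclei.

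**Figure D3:**
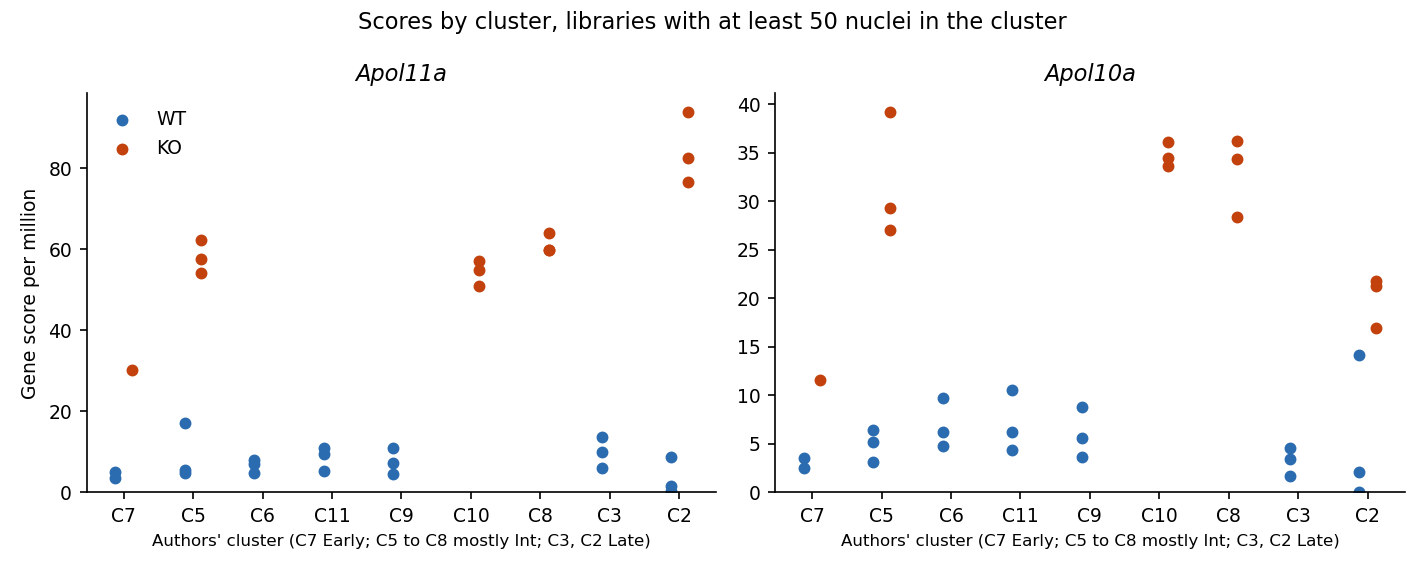
Gene score, scaled to a sum of 1000000 per library, of Apol11a (left) and Apol10a (right) in the authors' clusters, with 1 point per library that holds at least 50 nuclei of the cluster, WT in blue and KO in orange. KO points for Apol11a lie between 30.3 and 93.8 and WT points at or below 17.1, and for Apol10a the KO points of C2 lie under those of C5, C8 and C10.

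The change from Int to Late nuclei was not used to choose the members and was tested within each genotype, on the difference within each library (limma, Benjamini-Hochberg adjusted over 17747 genes). Most genes change between these classes: 76% of genes tested were past the threshold in WT, with 27.4% higher and 48.6% lower in Late, and 73.4% in KO, with 25.9% higher and 47.5% lower. The median change over all genes was -0.15 on the log2 scale in each genotype, and centring on the median moved it to 0.060 in WT and 0.036 in KO. Late nuclei were shallower, with library medians of 5693 to 6812 fragments against 10121 to 14998 in Int, and each nucleus was scaled to the same sum. The part of depth in these changes was not tested.

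The mean Apol11a score rose from Int to Late in both genotypes. The change was 0.26, 0.29 and 0.17 in WT libraries 1, 2 and 3, a mean of 0.24 (SE 0.073, adjusted p = 0.00538), and 0.64, 0.46 and 0.50 in KO, a mean of 0.53 (SE 0.073, adjusted p = 1.15e-06). It was positive in 6 of 6 libraries, and relative to the median-centred libraries it was 0.45 and 0.72.

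Its neighbour Apol10a fell from Int to Late in both genotypes, except that quantile normalization turned its WT value to 0.053. Its change was -0.54, -0.77 and -1.08 in WT libraries 1, 2 and 3, against -0.56, -0.81 and -0.69 in KO libraries 1, 2 and 3, with means of -0.79 (adjusted p = 1.99e-06) and -0.69 (adjusted p = 1.61e-05). The WT scores of Apol10a averaged 4.95 over Int and Late, under the filter of 5, so it was fitted through its KO scores. With no filter its WT adjusted p was 4.89e-06. With median centring the means were -0.59 and -0.50, and quantile normalization left the KO value at -0.50. The change of Apol11a exceeded that of Apol10a in each of the 6 libraries, by 0.80, 1.05 and 1.25 in WT and 1.2, 1.28 and 1.19 in KO, a pairing picked after the values were seen.

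Apol7c and Apol10b rose from Int to Late in KO, by 0.74 (adjusted p = 1.02e-05) and 0.39 (adjusted p = 0.00568). In WT their changes were -0.19 (adjusted p = 0.157) and -0.047 (adjusted p = 0.728), both of which turned positive with median centring (0.018 and 0.16) and with quantile normalization (0.62 and 0.72). Under quantile normalization both passed the threshold as rises in WT (adjusted p = 2.21e-05 and 4.73e-06), so a rise in KO alone is not shown. For Apol7c the KO change exceeded the WT change by 0.93 (SE 0.17, adjusted p = 0.00203), with changes of 0.89, 0.53 and 0.80 in the KO libraries and -0.52, -0.0063 and -0.038 in the WT libraries. Of all genes tested, 7.49% were past the threshold for this difference, 5.35% with the KO change above the WT change. The WT scores of Apol7c averaged 5.10 over Int and Late, just above the filter of 5, and with no filter the adjusted p was 0.00503. The Apol7c call was lost with quantile normalization (0.44, adjusted p = 0.0797). It was also lost when the variance trend was fitted on the mean difference, an alternative added after the data were seen (adjusted p = 0.0600).

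The difference between genotypes did not pass the threshold for Apol11a (0.29, adjusted p = 0.0890), Apol10b (0.44, adjusted p = 0.121) or Apol10a (0.11, adjusted p = 0.772). Apol11a passed it without WT library 3 (adjusted p = 0.0493) and with a pseudocount of 5 (adjusted p = 0.0279), and turned to -0.32 with quantile normalization. Apol10b passed it without WT library 3 (adjusted p = 0.00792) and with nuclei weighted by fragments (adjusted p = 0.0301).

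**Figure D4:**
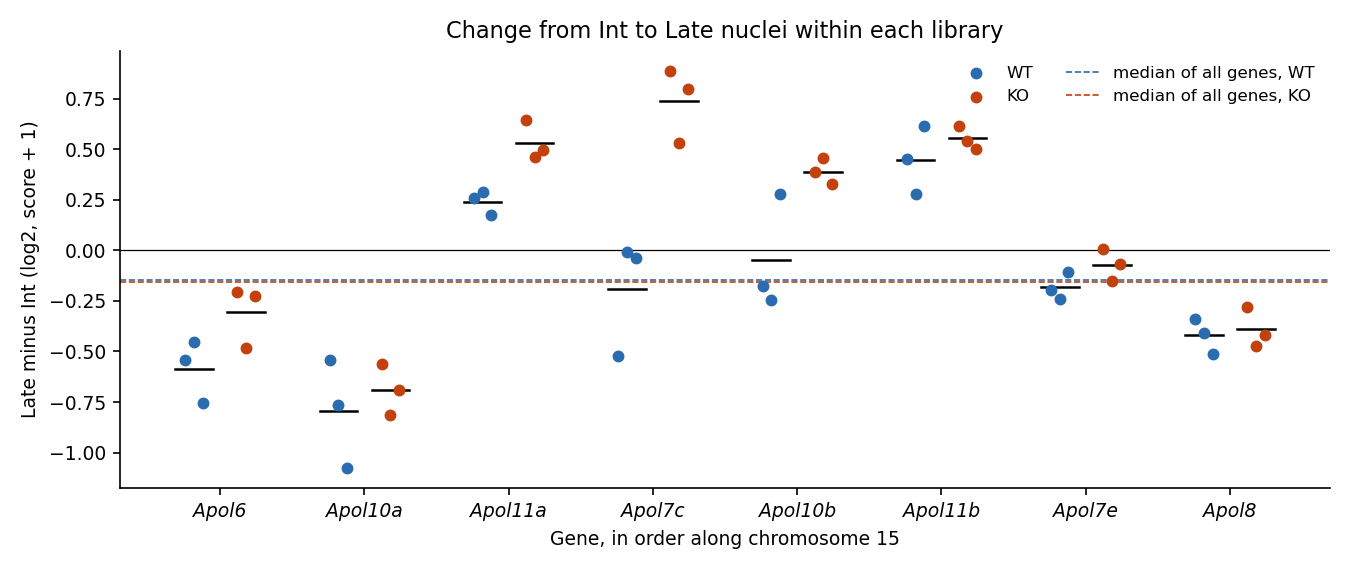
Late minus Int change in log2(score + 1) for the family genes on chromosome 15 that were tested, in order along the chromosome, with 1 point per library (WT blue, KO orange), a bar at the mean of 3 and dashed lines at the median of all genes. All 6 points of Apol11a lie above 0 and all 6 of Apol10a below it (its WT mean turns to 0.053 with quantile normalization), and the KO points of Apol7c lie above its WT points.

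Along the chromosome, the KO minus WT log2 fold change was highest at Apol11a and lower on both sides, but it did not end at the 100 kb limit. Just outside it, Apol11b scored 26.8, 31.1 and 21.5 in WT and 105.9, 106.4 and 109.3 in KO, a 4.05-fold difference (log2 fold change 1.99, SE 0.086). Its promoter window matches that of Apol11a at 298 of 300 bases, so the split of signal between Apol11a and Apol11b is uncertain. Apol7e, at 190.618 kb, had a 2.46-fold difference (1.21, SE 0.11), from 8.79 to 21.6. Apol6, at -463.196 kb, had a 3.51-fold difference (1.61, SE 0.11), from 4.60 to 16.1.

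The other family genes on the chromosome differed less. Apol8, at 248.711 kb, scored 82.3 in WT and 98.7 in KO (0.26, SE 0.053), Apol9b, at 220.801 kb, 4.10 and 5.17, and Apol7a 1.14 and 1.68. In all, KO libraries lay above WT libraries in 11 of the 12 family genes on chromosome 15, the exception being Apol9a at 0, beside 36.1% of all genes tested. Of 8 fitted, 8 were past the threshold as higher, beside 29.1% of all genes. These counts include the members, 4 of the 8 fitted, which this contrast chose, and of the 8 only 5 had a WT mean of at least 5, since Apol6 too was fitted only through its KO scores. Of the 2 genes of similar name elsewhere, Apold1 on chromosome 6, which encodes a distant relative in vessel-lining cells, scored 140.1 in WT and 121.5 in KO. Apol7d on chromosome 1 scored 2.88 (WT) and 2.81 (KO) over all nuclei, 4.87 (WT) and 3.86 (KO) in Int, and 1.04 (WT) and 1.73 (KO) in Late, so its order differed between the classes.

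Genes outside the family within 500 kb had log2 fold changes below 1 over all nuclei. There were 8, of which 7 were fitted and 7 were past the threshold as higher in KO, with a median log2 fold change of 0.42 (0.21 to 0.98). Of these 7, 1700109K24Rik (4.47 in WT, 5.98 in KO) was fitted only through its KO scores. In Int nuclei 5 of 8 fitted were higher (median 0.35), beside 12.7% and a median of 0.057 over all genes. Of these 5, 1700025B11Rik (4.03 in WT, 7.34 in KO in Int) was fitted only through its KO scores. In Int 7 of the 8 fitted had a WT mean of at least 5. In Late nuclei 6 of 6 were higher (median 0.48), beside 32.9% and 0.052. Between 500 and 1000 kb, 13 of 38 were higher and 8 lower, with a median of 0.12. Over all genes tested 29.1% were higher and 14.2% lower, with a median of 0.096. The 3 nearest on the left were Rbfox2, an RNA-binding splicing regulator at -201.218 kb (10.4 to 14.7, log2 fold change 0.47), 1700109K24Rik at -423.873 kb (0.35) and Mb at -457.603 kb, which encodes myoglobin and overlaps Apol6 (7.41 to 15.6, 0.98). The 3 nearest on the right were 1700025B11Rik at 53.621 kb, inside the window (3.12 to 6.44, under the filter), Myh9 at 333.904 kb, encoding a non-muscle myosin heavy chain (106.0 to 124.4, 0.23), and Txn2 at 420.723 kb, encoding mitochondrial thioredoxin (0.42).

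Beside Mb, the highest values within 1 Mb but outside the family were at Csf2rb2 (9.89 to 25.6, log2 fold change 1.29), Ncf4 (1.05) and Csf2rb (0.98), between 736.54 and 817.527 kb. Csf2rb and Csf2rb2 encode beta chains of cytokine receptors and Ncf4 a subunit of the phagocyte oxidase. The lowest was Foxh1, an embryonic transcription factor gene, at -838.323 kb (-0.21). The log2 fold changes in Int and Late nuclei were 0.90 and 1.55 for Csf2rb2, 0.96 and 1.15 for Ncf4 and 0.40 and 1.34 for Csf2rb, which did not pass the threshold in Int. The limma test of the Late minus Int change in KO against WT gave 0.65 for Csf2rb2 (adjusted p = 0.00667), 0.19 for Ncf4 (adjusted p = 0.402) and 0.94 for Csf2rb (adjusted p = 0.000311). Of all genes tested 7.49% passed for this difference, 5.35% with the KO change above the WT change, and that count depended strongly on the variance trend. These genes were named for high KO minus WT values, from which this difference is also built, so nothing is read from the calls.

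**Figure D5:**
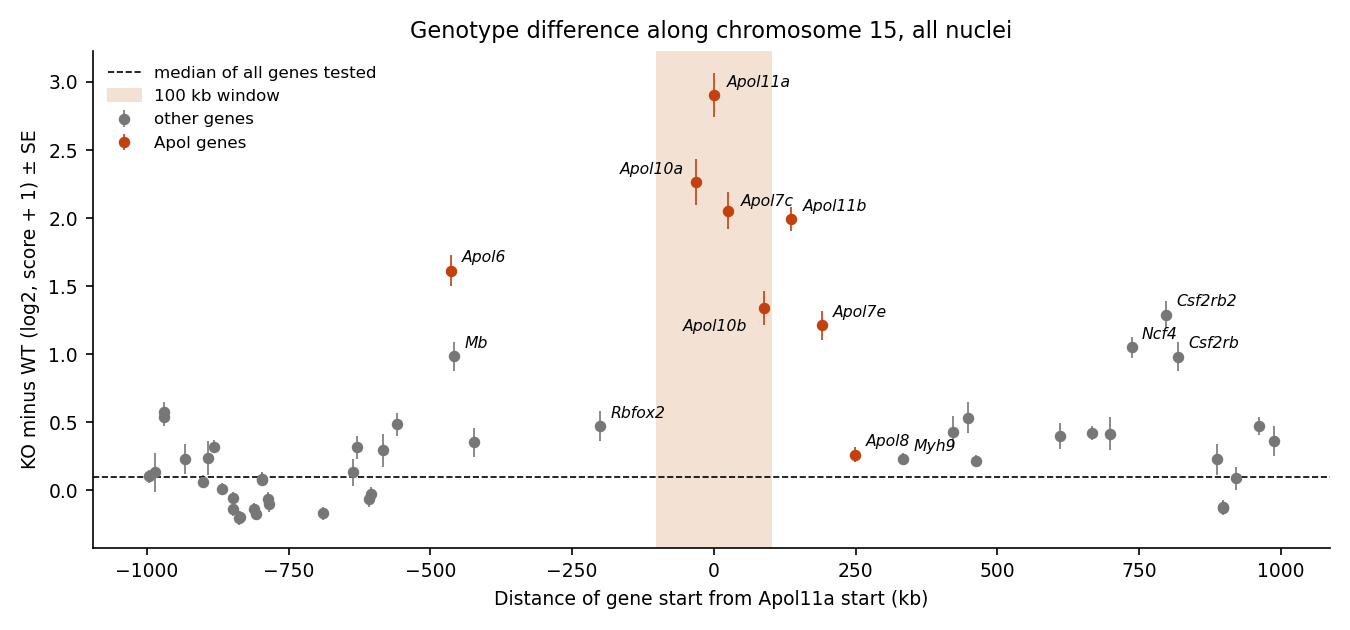
KO minus WT log2 fold change (log2 of score + 1) with its SE for every gene fitted within 1 Mb of the Apol11a start, over all nuclei, against distance in kb, with Apol genes in orange, others in grey, the 100 kb window shaded and a dashed line at the median of all genes tested. The values reach 2.90 at Apol11a and fall to 1.34 at Apol10b inside the window, while Apol11b, Apol7e and Apol6 stay above 1 outside it. The split of signal between the near copies Apol11a and Apol11b is uncertain.

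The genes outside 1 Mb whose levels over the 12 values (6 libraries, Int and Late) were most like those of Apol11a were H2-T10 (Pearson r = 0.989), A530013C23Rik (0.985), Actrt2 (0.983), Rbm12b2 (0.983) and Cebpb (0.982), of 15821 genes compared. H2-T10, a non-classical MHC class I gene, scored 30.7 and 65.1 in WT and KO Int nuclei and 32.7 and 71.1 in Late nuclei. Cebpb, a myeloid and stress-response transcription factor, scored 51.4 and 84.5 in Int and 56.8 and 98.3 in Late. It lies beside A530013C23Rik on chromosome 2 (167688915 to 167690432 and 167690759 to 167697413). Their scores can share fragments, so they are not separate cases. Within the cluster the same measure gave 0.989 for Apol11b, 0.982 for Apol10b, 0.977 for Apol7c, 0.903 for Apol10a and 0.382 for Apol8. The value for Apol11b is limited by its uncertain split from Apol11a. These r describe points that share libraries and fall into 2 genotypes, and they carry no test.

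The 17 listed apolipoproteins of other families, which carry lipids in plasma or sit in mitochondria, were set beside all genes tested. Of 14 fitted over all nuclei, 6 were higher in KO and 0 lower, with a median log2 fold change of 0.26. The 6 were Apoa4, Apoa5, Apoc1, Apod, Apoe and Apool, with log2 fold changes of 0.31 to 0.45. Apoa4 and Apod had WT means under the filter of 5 and were fitted only through their KO scores, which leaves 4 higher of 12. Over all genes tested, 29.1% were higher and 14.2% lower. In Int nuclei 0 of 15 passed limma's adjusted threshold (4 higher and 1 lower at an unadjusted p under 0.05), against 12.7% higher and 7.1% lower over all genes. In Late nuclei 5 of 12 were higher and 1 lower, against 32.9% and 18.5%. Of these 5, Apool (4.61, 3.95 and 4.86 in WT) was fitted only through its KO scores. That leaves 4 higher of 9 with a WT mean of at least 5.

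Of 28 listed interferon response genes, 26 were fitted, 15 were higher in KO and 3 lower, with a median log2 fold change of 0.22, beside 29.1% higher and 14.2% lower and a median of 0.096 over all genes tested. The highest was Irf1, an interferon-induced transcription factor, which scored 6.89, 8.39 and 5.94 in WT and 48.6, 41.4 and 37.6 in KO (log2 fold change 2.43). Its lowest KO library stood above its highest WT library, as in 36.1% of all genes tested. Of the 15, 4 (Oas1a, Mx1, Gbp2 and Iigp1) had a WT mean under the filter of 5 and were fitted only through their KO scores, and 11 were higher of the 22 fitted genes with a WT mean of at least 5. In Int nuclei 10 of the list were higher and 1 lower of 26, beside 12.7% and 7.1% of all genes. In Late nuclei 14 were higher and 3 lower of 25, beside 32.9% and 18.5% of all genes. Among fitted genes with a WT mean of at least 5, 9 of 25 were higher in Int and 11 of 22 in Late. The others called higher, Oas1a in Int and Oas1a, Mx1 and Iigp1 in Late, were fitted only through their KO scores. After Irf1 came Oas1a (0.89) and Mx1 (0.78), antiviral effectors, and Gbp2 (0.65), a guanylate-binding protein. The 3 lower were Rsad2 (-0.29), Ifit1 (-0.28) and Ifih1 (-0.25), also antiviral genes, and Isg15 (0.078) and Stat2 (-0.060) did not pass.

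Marker genes of red cell precursors and of other cells were set beside these values, over all nuclei, where 29.1% of all genes tested were higher in KO and 14.2% lower. Of 10 erythroid markers 9 were lower in KO and 0 higher, with summed scores from 1967 to 2089 (WT) and from 1756 to 1840 (KO). Of 6 neutrophil markers fitted 3 were higher (sums of 59.2 to 63.7 and 72.7 to 76.7), as were 3 of 5 stem and progenitor markers (50.2 to 60.3 and 63.6 to 74.6). By class, stem and progenitor markers gave 0 higher of 5 in Int (69.2 to 82.3 and 79.6 to 87.3). That count was also 0 at an unadjusted p under 0.05 by limma. In Late nuclei 4 of 4 were higher (30.2 to 35.1 and 46.7 to 51.99). Erythroid markers gave 6 lower of 10 in Int and 9 lower of 10 in Late. Over all genes tested, 12.7% were higher and 7.1% lower in Int, and 32.9% and 18.5% in Late. Of 10 macrophage markers only 4 were fitted and 0 passed (228 to 250 and 237 to 252). Of 8 lymphoid markers only 2 were fitted and 0 passed (60.6 to 64.1 and 67.2 to 74.4). Both counts were by limma, and also 0 in each list at an unadjusted p under 0.05. Sums run over all listed markers, fitted or not, and Cd68 (193, 209 and 212 in WT) made up most of the macrophage sum. Markers under the filter were not tested, so these counts do not show that macrophage or lymphoid signal was unchanged. Of 5 dendritic markers fitted 1 was higher and 1 lower (136 to 153 and 132 to 142). The higher one, Clec9a, had a WT mean under the filter of 5 and was fitted only through its KO scores. That leaves 0 higher of 3 with a WT mean of at least 5. Of 4 megakaryocyte markers fitted 1 was higher and 1 lower (175 to 204 and 212 to 223). None of the listed markers was at 0 in all libraries. The part of these shifts in the scores of the locus was not tested. Nor was that of the share of fragment ends in peaks, lower in KO over all nuclei and in Late nuclei.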

How the data were processed

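Of the series' 45 samples 6 were analysed, the ATAC (chromatin accessibility) libraries of Ter119+ nuclei from 10x multiome. The ATAC libraries of stem and progenitor cells, the RNA libraries and the other assays were not analysed here. The submitters' processing notes name Cell Ranger and mm10. The authors deposited a gene score per nucleus, a signal scaled to a sum near 10000 (9999.855 to 10000.12 here), and a table of nuclei with unscaled counts of fragments, classes and clusters. The depositors' table lists each nucleus 2 times, and 1 copy was used. The lowest listed nucleus had 1000 fragments, doublets were not removed further, and the software and distance weighting are not given in the sources used here.

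Scores were averaged per library, scaled to a sum of 1000000 and compared as log2(score + 1) with limma 3.58.1 in R 4.3.3 (variance trend, two-sided, Benjamini-Hochberg threshold of 0.05) over genes with a mean of at least 5. Late minus Int was fitted on differences within libraries. The scripts were tested on simulated data. Python 3.11.15, numpy 2.4.6, pandas 2.3.3, Biopython 1.88 and matplotlib 3.10.9 were used. Gene starts are 5′ ends, and 23856 of 23863 symbols matched to RefSeq (GRCm38.p6) lay on the same chromosome. The members and lists were chosen with earlier results of these data known. Named were all Apol genes, the 3 nearest other genes on each side, the highest and lowest within 1 Mb, and the 5 genes most like Apol11a. Oas1a, Mx1, Gbp2 and the other single list genes were named after their values were seen. Alternatives changed the scaling, pseudocount, filter, weighting, depth range, variance trend and replicate block, or left out a library.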

Additional observations from a re-analysis of the deposited data

Results flagged for a closer look

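For Apol7c, the change from Int to Late nuclei differed between the genotypes by 0.93 on the log2 scale (KO minus WT, SE 0.17, limma adjusted p = 0.00203). The KO libraries rose by 0.89, 0.53 and 0.80, whereas the WT libraries stood at -0.52, -0.0063 and -0.038. In scores, the KO mean went from 17.4 to 30.0 and the WT mean from 5.47 to 4.73, which averages 5.10 and lies just above the filter of 5. Over 16 alternative settings the difference lay between 0.44 and 1.03, with adjusted p between 7.42e-06 and 0.0797, and 2 settings did not pass the threshold.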

How the results depend on the processing

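The KO minus WT log2 fold change of Apol11a stayed between 2.46 and 3.12 over all nuclei, 2.28 and 2.97 in Int and 2.62 and 3.28 in Late nuclei under every alternative run. Over all nuclei Apol10a ranged from 1.68 to 2.50, Apol7c from 1.52 to 2.22 and Apol10b from 0.96 to 1.47. The rise of Apol11a from Int to Late passed the threshold in every alternative, with adjusted p up to 0.0241 in WT and 0.00044 in KO. In the depth-limited nuclei the gap in the share with Apol11a signal was 38.4 percentage points in Late, against 30.2 without the limit.

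Counts of genes past the threshold moved more. A filter at 20 gave 4244 (7661 as reported, all nuclei), 4560 (8161, Late), 7886 (13486, Late against Int in WT), 7814 (13033, in KO) and 601 (1329, the difference between genotypes). Fewer genes were tested there. Weighting by fragments gave 2415 over all nuclei, and no variance trend gave 1921 in Int (3858 as reported). For the difference, quantile normalization gave 801, no trend 430 and the added trend on the mean difference 28. Leaving out 1 library gave 5355 to 8440 over all nuclei, 2547 to 4782 in Int (2547 without KO library 1), and 375 to 2700 for the difference (413 without WT library 1, 2700 without WT library 3, 720 without KO library 1, 375 without KO library 2). Except for the filter, the cause was not tested.

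The Int to Late change turned sign for Apol10a in WT with quantile normalization (0.053). It did so for Apol7c in WT with median centring (0.018) and quantile normalization (0.62). For Apol10b in WT it did so with median centring (0.16), quantile normalization (0.72), nuclei of 5000 to 20000 fragments (0.081), and without WT library 1 (0.018) or 2 (0.051), the range over left-out libraries being -0.21 to 0.051. The difference between genotypes turned sign for Apol10a with a pseudocount of 5 (-0.15), quantile normalization (-0.55) and without WT library 3 (-0.035, against up to 0.23 with another library left out), and for Apol11a with quantile normalization (-0.32). The cause was not tested. Replicate numbers were not used as pairs in the main fits. Same-numbered deviations correlated at -0.117, -0.273 and 0.206, and differently numbered ones at -0.325 to 0.422. These values cannot show whether same-numbered libraries were handled together. With a replicate block 7470, 4527 and 7982 genes passed (all, Int, Late) and 1844 for the difference. A score of 0 in a nucleus is limited by depth.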
